A study of Mus musculus with 24 samples.

Results

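The genes described here are 40 transcripts that encode the machinery of mitosis and chromosome segregation. The set was listed by symbol, with earlier results of these data known. All 40 were among the 25239 genes of the deposited table of normalised counts, and all 40 passed the filter on low values (a mean of at least 10 over all libraries) that left 13549 genes for testing. They were measured by RNA sequencing in 24 cultures of mouse tracheal epithelial cells grown at an air-liquid interface, in which the upper side of the cell layer faces air and the cells form a pseudostratified epithelium. Donor mice were wild-type FVB/NJ, 7 to 8 weeks old, and their cells were differentiated for 10 to 14 days and were then exposed for 10 days to cigarette smoke or to humidified air, where 1 smoke exposure was 2 cigarettes burned over about 8 minutes. Cells of each sex went to air or to smoke, which gave 4 groups with 6 culture inserts each, numbered 1 to 6 in the labels. The labels name no donor animals, so all p-values measure only the spread between inserts, which may be technical.

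Mitosis begins when cyclin-dependent kinase 1, bound to A- and B-type cyclins, is activated and the duplicated chromosomes condense. Kinetochores built on the centromeres attach the chromosomes to spindle microtubules, and a checkpoint holds back the anaphase-promoting complex until every chromosome is attached. Transcripts of these genes accumulate late in the cell cycle and are low in cells that have left it, so in airway epithelium they are best known from dividing basal cells and early progenitors, while mature multiciliated and secretory cells mostly do not divide. In bulk RNA, a change in the number of dividing cells and a change in the transcript per dividing cell cannot be told apart.

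The libraries held 16038813 to 24485024 reads in genes in the 23 columns from which whole reads could be recovered. Sex-specific transcripts fitted the labels in all 24 libraries. Epithelial transcripts were high in every group (Cdh1, the epithelial cadherin, 15436 to 23134), and the leukocyte marker Ptprc did not exceed a normalised count of 8.31. Ptprc is 1 of 10 leukocyte markers read. Together with others such as Lyz2 and Cd68, they summed to 5179.5 (female smoke insert 4) to 131020.2 (female air insert 1). Female air insert 1 and female smoke insert 4 stood apart from their groups with a trend on transcript length. In female air insert 1, the deviation from the other inserts correlated with transcript length with a Spearman coefficient of -0.664 across all genes and -0.664 across the 40 mitotic genes. In female smoke insert 4, the values were -0.424 across all genes and -0.527 across the mitotic genes. These correlations are descriptions across genes, which are not independent. Female air insert 1 was the highest of its group for 10 mitotic genes and the lowest for 20. Its 20 shorter mitotic transcripts (931 to 3376 bases) lay a median of 0.05 log2 units below the median of the other female air inserts, and its 20 longer ones (3416 to 11122 bases) a median of 0.65 below. Female smoke insert 4 was the highest of its group for 35 of the 40.

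Promoter sequences of the mitotic genes are shown because many late cell cycle genes carry a cell cycle genes homology region, a short element bound by the MuvB complexes, and CCAAT boxes bound by NF-Y. RefSeq promoter windows of build GRCm38.p6, from 250 bases before to 50 bases after the annotated start, were matched by symbol for 34 of the 40 genes in 36 windows. Below are 200 bases (150 before to 50 after the start, 5′ to 3′ on the strand of the gene) for the gene of each of 5 role groups with the largest female smoke response among those with an entry and a motif. They are Plk1 (chr7:122159285-122159484, plus strand), Cdca8 (chr4:124936868-124937067, minus strand), Bub1 (chr2:127831810-127832009, minus strand), Cenpe (chr3:135212413-135212612, plus strand) and Ncapg (chr5:45669775-45669974, plus strand). Capitals mark the core of the homology region, TTTGAA, its variant forms TTCGAA or also TTTAAA, and CCAAT or its reverse complement ATTGG.
Plk1: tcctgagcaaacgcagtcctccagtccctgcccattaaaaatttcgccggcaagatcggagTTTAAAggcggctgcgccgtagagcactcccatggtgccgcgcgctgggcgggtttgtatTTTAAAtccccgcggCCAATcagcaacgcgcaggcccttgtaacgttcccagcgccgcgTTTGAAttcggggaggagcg
Cdca8: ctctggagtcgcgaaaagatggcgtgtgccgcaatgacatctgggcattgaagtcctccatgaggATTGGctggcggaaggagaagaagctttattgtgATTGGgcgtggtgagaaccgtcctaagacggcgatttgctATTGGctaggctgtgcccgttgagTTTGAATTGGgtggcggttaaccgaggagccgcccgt
Bub1: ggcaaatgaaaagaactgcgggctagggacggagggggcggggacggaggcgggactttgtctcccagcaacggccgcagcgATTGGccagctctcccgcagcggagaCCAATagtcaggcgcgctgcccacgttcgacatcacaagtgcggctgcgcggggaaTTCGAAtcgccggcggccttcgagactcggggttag
Cenpe: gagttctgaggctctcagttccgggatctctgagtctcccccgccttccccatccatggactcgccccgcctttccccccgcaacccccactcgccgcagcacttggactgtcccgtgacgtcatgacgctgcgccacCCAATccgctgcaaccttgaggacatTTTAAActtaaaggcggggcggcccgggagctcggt
Ncapg: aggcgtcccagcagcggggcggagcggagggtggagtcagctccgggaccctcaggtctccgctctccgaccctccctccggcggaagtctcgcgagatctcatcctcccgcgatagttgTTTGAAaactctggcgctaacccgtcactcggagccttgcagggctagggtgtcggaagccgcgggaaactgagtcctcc
Plk1 held TTTGAA just after the start, a CCAAT box just before it and 2 matches to TTTAAA upstream. In Cdca8 the TTTGAA after the start overlapped an ATTGG by shared bases, and 3 further ATTGG matches lay upstream. Bub1 held TTCGAA after the start and CCAAT boxes in both orientations. Cenpe held TTTAAA and 1 CCAAT box, and Ncapg held TTTGAA before the start with no CCAAT match in the printed stretch.

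Both strands were searched, and TTCGAA and TTTAAA read the same on both. TTTGAA was present in 29 of the 36 windows of mitotic genes (80.6%) and in 17.9% of all 32851 promoter windows of the same length. Within 50 bases of the start it was present in 27 of 36 (75.0%) and in 4.9% of all windows. CCAAT was present in 29 of 36 (80.6%) against 37.4% of all windows, and TTTGAA with CCAAT in 25 of 36 (69.4%) against 7.0%. Any of the 3 cores occurred in 33 of 36 windows (91.7%) against 28.8%. The windows of Nuf2 and Ncaph held none of the 4 motifs, and that of Nek2 held CCAAT boxes only. A match is a description of these letters and does not show that the element is bound.

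**Figure D1:**
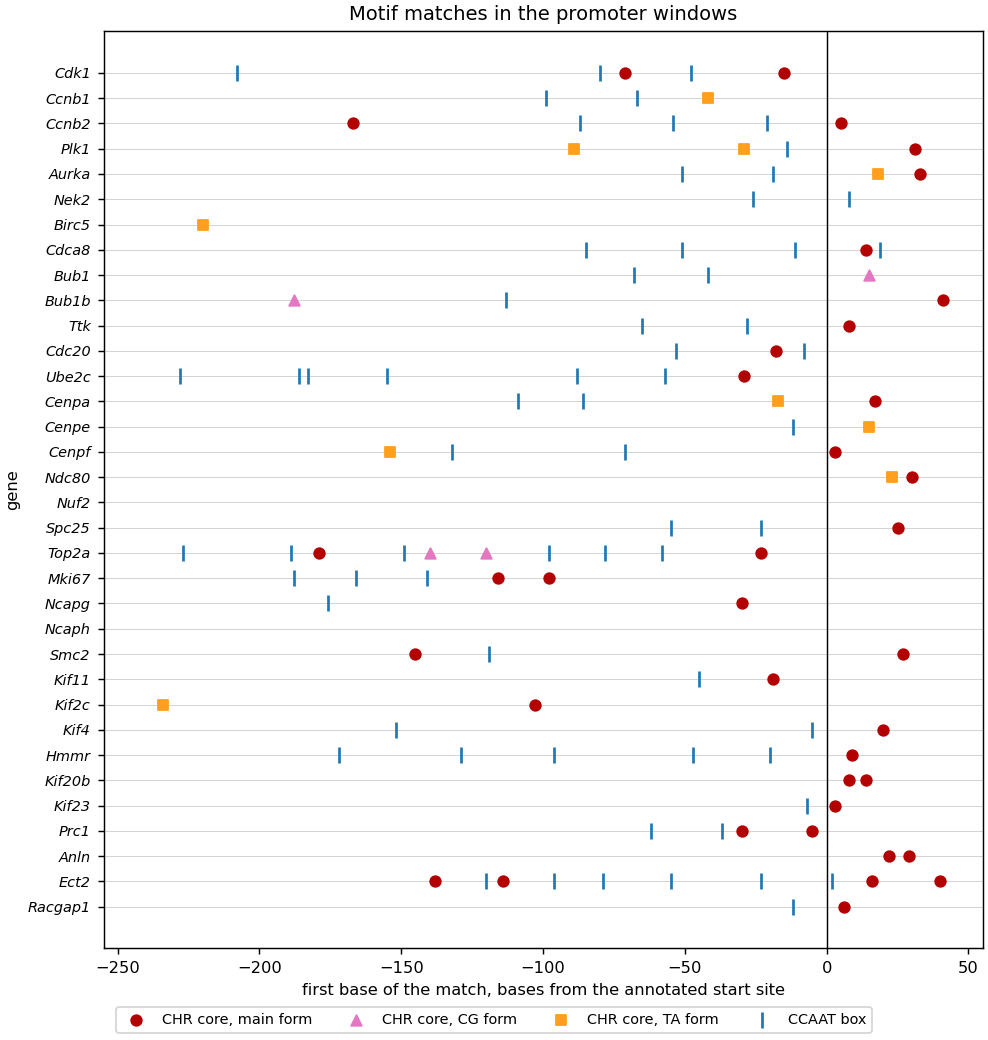
Positions of motif matches in the promoter windows of 34 mitotic genes, in bases from the annotated start (horizontal axis), with 1 line per gene; circles, triangles and squares are the 3 homology region cores and bars are CCAAT boxes on either strand. Most TTTGAA matches lie within 50 bases of the start (27 of 36 windows), and most CCAAT matches lie upstream of it.

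In female cultures, smoke was accompanied by higher transcript levels of most of the 40 mitotic genes. Of the 40 genes, 34 were higher and 0 lower in smoke at an adjusted p under 0.05 (limma with Benjamini-Hochberg adjustment over all 13549 genes), where 15.5% of all genes were called higher and 19.3% lower. The median log2 fold change, on the scale of log2(normalised count + 1), was 1.28 over the mitotic genes, while that over all genes was within 0.01 of 0. For 20 of the 40, all 6 smoke inserts lay above all 6 air inserts, a separation found for 6.73% of all genes. For 0 of the 40 did all smoke inserts lie below all air inserts (5.75% of all genes). Leaving out female air insert 1 and female smoke insert 4 together gave 27 genes called higher, with a median of 1.06, against 21.9% of all genes called higher. The 7 genes that lost their call were Ccnb1, Nuf2, Mki67, Kif2c, Hmmr, Kif20a and Anln, with limma adjusted p-values of 0.0529 (Anln) to 0.0797 (Ccnb1). Without those inserts, 25 genes were fully separated upward, against 15.3% of all genes, and 0 downward, against 12.9%.

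**Figure D2:**
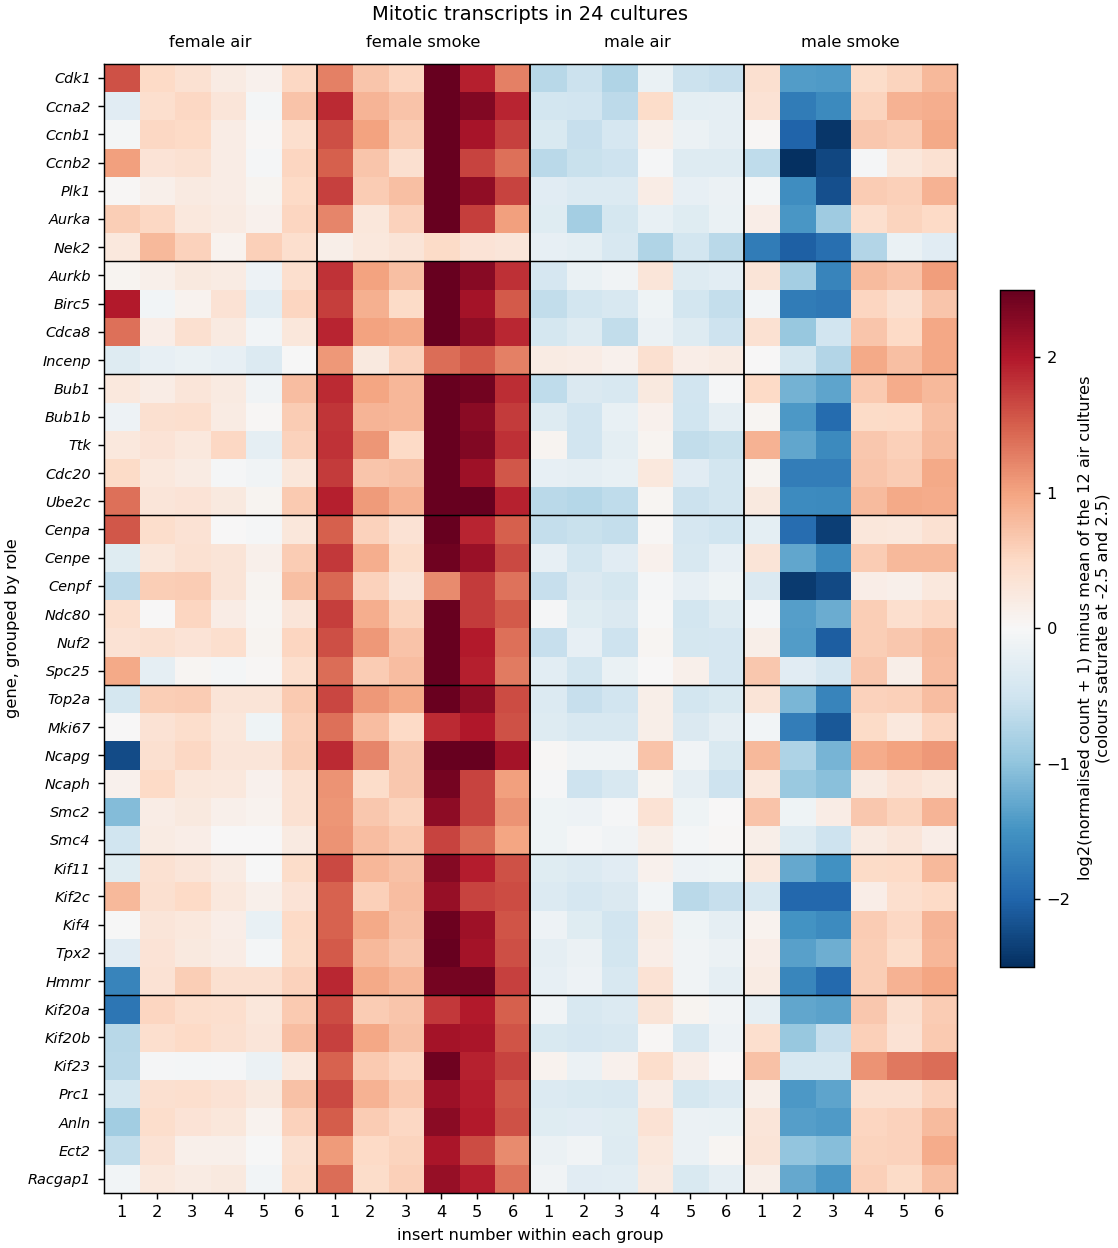
Level of the 40 mitotic genes (rows, grouped by role) in the 24 cultures (columns), as log2(normalised count + 1) minus the mean of the 12 air cultures, with red above and blue below that mean and colours saturating at 2.5. Female smoke columns are red for nearly all genes, with Nek2 the palest, and the male smoke columns split into blue inserts 2 and 3 and red inserts 4 to 6.

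Among the kinases and cyclins that start mitosis, 3 of 7 rose in female smoke. Ccna2, the A-type cyclin of S phase and mitotic entry, ranged from 225 to 453 normalised counts in female air (median 355) and from 451 to 2459 in female smoke (median 1018). The groups overlapped by a single smoke insert, insert 3, and the log2 fold change was 1.53 ± 0.44 (SE, n = 6 per group; limma adjusted p = 0.00984). Plk1, the polo-like kinase that acts on centrosomes and kinetochores, spanned 259 to 359 in air (median 286) and 396 to 1766 in smoke (median 833). Its groups did not overlap (log2 fold change 1.45 ± 0.42, limma adjusted p = 0.0106). Ccnb1, the main B-type cyclin of mitosis, also rose without overlap (1.37 ± 0.46, limma adjusted p = 0.0239), and its adjusted p was 0.0797 without female air insert 1 and female smoke insert 4. Cdk1 itself was not called. Its air values reached 1018 in insert 1 against 364 to 483 in the other air inserts, and its log2 fold change was 0.88 ± 0.39 (limma adjusted p = 0.0891). Ccnb2 (1.02, adjusted p = 0.0750) and Aurka, the centrosomal Aurora kinase (0.85, adjusted p = 0.0515), were not called by limma either. Nek2, a kinase that splits the centrosome pair, was the exception in direction. It lay between 681 and 1126 in air (median 903) and between 705 and 893 in smoke (median 795), with fully overlapping ranges and a log2 fold change of -0.15 ± 0.25 (limma adjusted p = 0.687).

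All 4 subunits of the chromosomal passenger complex, which corrects faulty attachments and later marks the cleavage site, rose in female smoke. Aurkb, its kinase, was at 139 to 203 in air (median 170.0) and at 256 to 1089.6 in smoke (median 533), a log2 fold change of 1.59 ± 0.37 (limma adjusted p = 0.00246). Incenp, its scaffold, was at 563 to 707 in air (median 616) and at 841 to 2061 in smoke (median 1608), with 1.22 ± 0.25 (limma adjusted p = 0.000842). Neither gene had a smoke insert within the range of air. Cdca8, which encodes borealin, was at 172 to 470.1 in air (median 216), the top value being insert 1, and at 349 to 1764 in smoke (median 678), with 1.48 ± 0.34 (limma adjusted p = 0.00232). Birc5, which encodes survivin, had the widest air range of the complex, with 738 in insert 1 against a group median of 219, and its log2 fold change was 1.26 ± 0.48 (limma adjusted p = 0.0436).

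All 5 genes of the spindle checkpoint and the anaphase-promoting complex rose, with log2 fold changes from 1.40 to 1.59. Bub1, a checkpoint kinase of the kinetochore, was at 110.2 to 199.7 in air (median 139) and at 209 to 1119.6 in smoke (median 425), with no overlap and 1.59 ± 0.39 (limma adjusted p = 0.00358). Bub1b, which encodes the checkpoint protein BubR1, was at 242 to 414 in air (median 328) and at 469 to 1495 in smoke (median 909), again with no overlap (1.40 ± 0.37, limma adjusted p = 0.00623). Ube2c, the ubiquitin-conjugating enzyme of the anaphase-promoting complex, was at 331 to 822 in air (median 396) and at 578 to 3555 in smoke (median 1218). Its overlap came from air insert 1, which held the air maximum (1.47 ± 0.45, limma adjusted p = 0.0130). The kinase Ttk and the co-activator Cdc20 also rose (1.46 and 1.42).

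Of the 6 centromere and kinetochore genes, 4 rose. Cenpe, a kinesin that carries chromosomes along microtubules, was at 218 to 421 in air (median 332) and at 371 to 1469.6 in smoke (median 885), and only smoke insert 3 fell within the air range (1.33 ± 0.38, limma adjusted p = 0.00901). Ndc80, the microtubule-binding subunit that names its complex, was at 118 to 170.1 in air (median 138) and at 173 to 718 in smoke (median 366), with 1.27 ± 0.33 (limma adjusted p = 0.00495). Its complex partners Nuf2 and Spc25 rose to a similar size (1.21 and 1.30). The centromeric histone Cenpa was not called (1.08 ± 0.47, limma adjusted p = 0.0757), with air insert 1 at 654 against an air median of 277. Cenpf, the longest transcript of the set, was not called either (0.82 ± 0.40, limma adjusted p = 0.119), with 297 to 795 in air and 578 to 1595 in smoke.

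All 6 genes of chromosome structure rose. Ncapg, a condensin I subunit, had the largest log2 fold change of the 40 genes, 1.97 ± 0.49 (limma adjusted p = 0.00375). It was at 15.2 to 116 in air (median 96.2) and at 119.8 to 766 in smoke (median 299). The lowest air value was insert 1, and without that insert and smoke insert 4 the log2 fold change was 1.25 ± 0.39 (limma adjusted p = 0.0144). Smc4, a core ATPase of both condensins, had the smallest adjusted p. Its values were 662 to 1089 in air (median 991) and 1477 to 3008 in smoke (median 1944), with a log2 fold change of 1.09 ± 0.16 (limma adjusted p = 5.97e-05). Smc2, its partner, was at 190.2 to 526 in air (median 450.4) and at 593 to 1907 in smoke (median 871), with 1.23 ± 0.25 (limma adjusted p = 0.000985). The topoisomerase Top2a and the proliferation marker Mki67 rose by 1.33 ± 0.35 and 1.09 ± 0.37 on the log2 scale.

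All 5 spindle motor and assembly genes rose. Hmmr, a microtubule-binding protein of the spindle pole, was at 66.9 to 324 in air (median 279.9) and at 379 to 1125 in smoke (median 739), with 1.58 ± 0.47 (limma adjusted p = 0.0119). Its lowest air value was insert 1, and without that insert and smoke insert 4 it was not called (1.08 ± 0.45, limma adjusted p = 0.0548). Tpx2, which activates Aurora A on the spindle, was at 303 to 510.4 in air (median 428) and at 585 to 2405 in smoke (median 1089.9), with 1.41 ± 0.35 (limma adjusted p = 0.00350). Kif2c, a kinesin that shortens microtubules, had the smallest rise of the 5 (0.98 ± 0.36, limma adjusted p = 0.0396), between 193 and 309 in air and between 267 and 802 in smoke. The bipolar spindle motor Kif11 and the chromokinesin Kif4 rose by 1.34 and 1.37 on the log2 scale.

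All 7 genes of the central spindle and cytokinesis rose. Kif23, the kinesin of the centralspindlin complex, was at 242 to 464 in air (median 375) and at 556 to 2083 in smoke (median 1158), with no overlap and a log2 fold change of 1.56 ± 0.32 (limma adjusted p = 0.000895). Its partner Racgap1 and Ect2, which that complex recruits, rose by 1.15 and 1.10 on the log2 scale. Kif20a, which brings the passenger complex to the midzone, was at 74.5 to 413 in air (median 357) and at 411 to 1039 in smoke (median 785), with 1.28 ± 0.40 (limma adjusted p = 0.0154). Without female air insert 1, which held the lowest value, and female smoke insert 4, Kif20a was not called (0.82 ± 0.35, limma adjusted p = 0.0568). The microtubule bundler Prc1, the actin-binding scaffold Anln and the kinesin Kif20b rose by 1.18, 1.27 and 1.23.

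**Figure D3:**
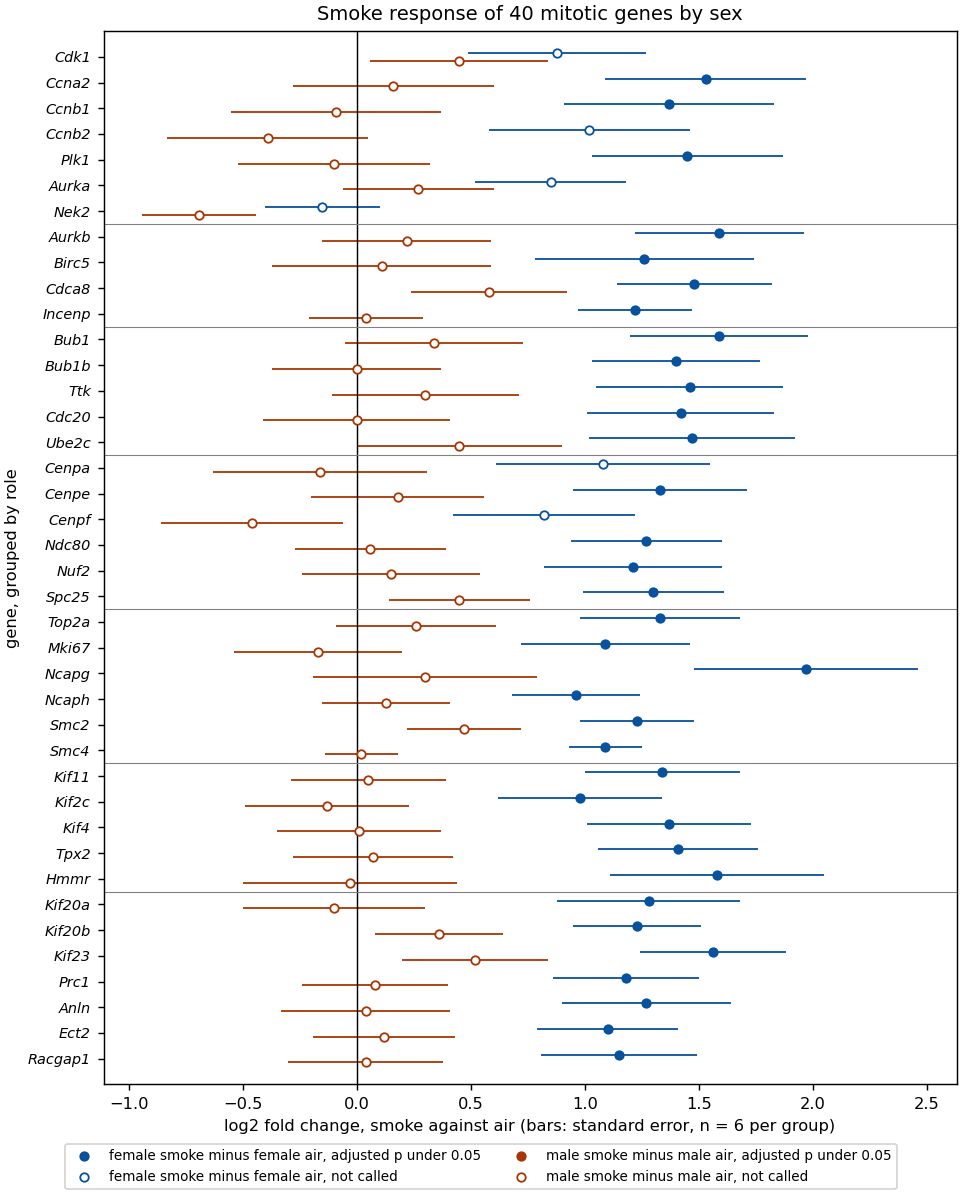
Log2 fold change of smoke against air for each mitotic gene (rows, by role) in female (blue) and male (brown) cultures; bars are standard errors, n = 6 per group, and filled points passed an adjusted p of 0.05. In female cultures 34 of 40 points are filled and Nek2 alone lies below 0, and in male cultures no point is filled.

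The female rise was uneven between inserts. Taking each smoke insert against the mean of the female air inserts, the median over the 40 genes was 1.35 log2 units in insert 1, 0.58 in insert 2, 0.44 in insert 3, 2.26 in insert 4, 1.79 in insert 5 and 1.34 in insert 6. The number of mitotic genes above every air insert was 36, 27, 22, 39, 39 and 36 in the same order, where the share of all genes above every air insert was 18.3% to 25.2%. No mitotic gene in any female smoke insert lay below all air inserts. Fitted on inserts 4 to 6 alone, 39 genes were called higher, all but Nek2, with a median of 1.74 (22.1% of all genes called higher). Fitted on inserts 1 to 3 alone, Smc4 was the single gene called (0.90 ± 0.22, limma adjusted p = 0.0456), with a median over the 40 genes of 0.85 and 2.83% of all genes called higher. The fit on inserts 1 to 3 included female air insert 1, and that on inserts 4 to 6 included female smoke insert 4. Both inserts had the trend on transcript length described above. The split by insert number was chosen with earlier results of these data known. Adjusted p-values and calls from fits on inserts 1 to 3 or 4 to 6 are therefore descriptions, here and below. Ndc80 shows the spread, at 393, 220.0 and 173 in smoke inserts 1 to 3 and 718, 398 and 339 in inserts 4 to 6.

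In male cultures, the 6 smoke inserts lay on both sides of the air inserts, and no mitotic gene was called. Of the 40 genes, 0 were called by limma in either direction, where 9.76% of all genes were called higher and 12.2% lower. The median log2 fold change was 0.08 over the mitotic genes. Only Nek2 passed an unadjusted limma p of 0.05, where 4714 of all 13549 genes did. On recovered reads, which left out male smoke insert 5, edgeR and DESeq2 each called Nek2 lower and no other mitotic gene (11.9% and 15.1% of all genes lower). No mitotic gene had all male smoke inserts above, or all below, the male air inserts, where 11.0% and 14.2% of all genes did. The limma fit with array quality weights, which gives less weight to libraries that deviate from their group, called 32 of the 40 higher (median 0.62, with 23.4% of all genes called higher). In that fit, male smoke inserts 1 to 3 had weights of 0.31, 0.68 and 0.20, and inserts 4 to 6 had weights of 1.87, 1.39 and 2.63.

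The split by insert was broad. Against the mean of the male air inserts, the median over the 40 genes was 0.40 in male smoke insert 1, -1.11 in insert 2, -1.29 in insert 3, 0.81 in insert 4, 0.74 in insert 5 and 0.99 in insert 6. In insert 2, 38 of the 40 genes lay below every male air insert, and in insert 3 this held for 37, where 35.5% and 39.8% of all genes did so. In inserts 4, 5 and 6, 38, 40 and 39 genes lay above every male air insert, where 31.3%, 31.1% and 30.2% of all genes did. Insert 1 was intermediate, with 20 genes above and 2 below all air inserts, where 38.0% and 40.4% of all genes lay above and below.

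**Figure D4:**
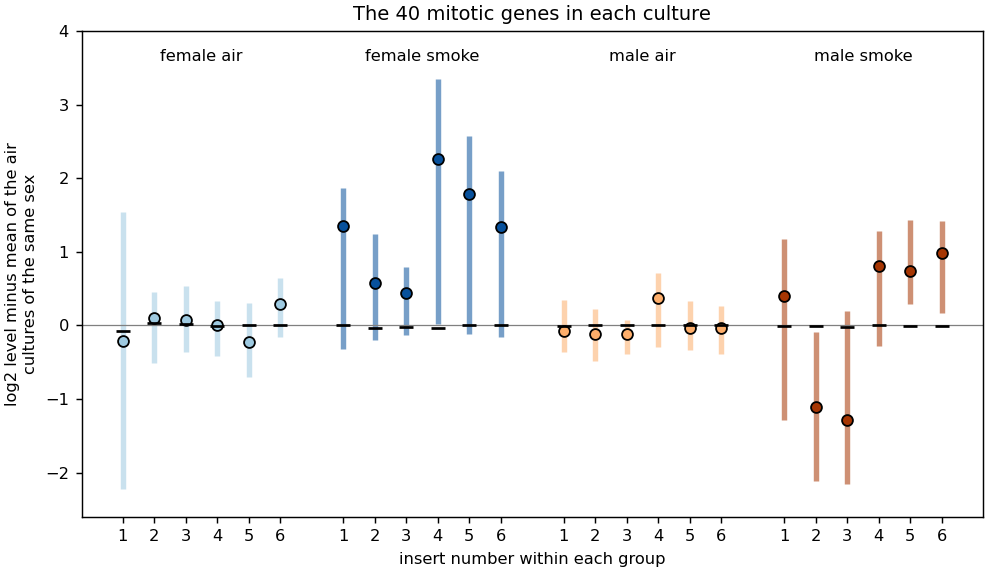
Median (point) and range (bar) over the 40 mitotic genes in each insert, as log2 level minus the mean of the air cultures of the same sex; black dashes mark the median over all genes tested. The medians of the 6 female smoke inserts lie between 0.44 and 2.26, and those of the male smoke inserts between -1.29 and 0.99, while the median over all genes stays near 0 in each insert.

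Ccnb1 shows the male pattern. It was at 263 to 427 in male air (median 319), and at 402, 97.4, 72.0, 623, 604 and 758 in male smoke inserts 1 to 6. Inserts 2 and 3 lay well below the air range, insert 1 within it and inserts 4 to 6 above it. Cdc20 lay at 461 to 766 in male air (median 548) and at 672, 193, 191, 1029, 985 and 1231 in the smoke inserts, with the same order. Mki67 lay at 934 to 1361 in air (median 974) and at 1184, 374, 285, 1736, 1486 and 1789 in smoke.

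The gene with the largest male response among the entry kinases was Nek2. It was at 380.2 to 553 in male air (median 472) and at 189.9, 154, 173, 383, 569 and 523 in smoke inserts 1 to 6, so inserts 1 to 3 lay below all air inserts and inserts 4 and 6 within their range. Its log2 fold change was -0.69 ± 0.25 (limma adjusted p = 0.0523). On inserts 1 to 3 alone it was -1.61 ± 0.17 (limma adjusted p = 0.000396), a description, since that split was chosen with earlier results known. Nek2 and Incenp were the 2 genes that lay below all male air inserts in smoke insert 1. In the passenger complex, Cdca8 had the largest male value (0.58 ± 0.34, limma adjusted p = 0.239), with 118 to 163 in male air (median 139) and 237, 93.5, 129, 292, 257 and 354 in the smoke inserts. Only inserts 2 and 3 were not above the air range.

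In the checkpoint group, Ube2c was at 194 to 327 in male air (median 211) and at 376, 106, 105, 550.4, 610.0 and 605 in smoke (log2 fold change 0.45 ± 0.45). Among kinetochore genes, Cenpf was at 317 to 463 in male air (median 387) and at 365, 88.7, 97.9, 526, 514 and 563 in smoke (-0.46 ± 0.40). For both genes inserts 2 and 3 lay far below the air range and inserts 4 to 6 above it, while insert 1 lay above it for Ube2c and within it for Cenpf. Among chromosome structure genes, Smc2 was at 370.2 to 519.7 in male air (median 385) and at 659, 372, 459.8, 640.3, 592 and 726 in smoke (0.47 ± 0.25, limma adjusted p = 0.192). Smc2 was one of the few genes that stayed within the air range in inserts 2 and 3. Kif2c, at 109 to 168 in male air (median 133), was at 133, 44.4, 44.3, 198, 234 and 249 in smoke (-0.13 ± 0.36). Kif23, at 347 to 521 in male air (median 409.5), was at 636, 292, 289.9, 838, 966 and 1010.5 in smoke (0.52 ± 0.32, limma adjusted p = 0.255).

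Fitted on male inserts 4 to 6 alone, 7 mitotic genes were called higher, Cenpe, Hmmr, Incenp, Kif20b, Kif23, Kif2c and Top2a, with a median of 0.75 over the 40 genes (3.30% of all genes called higher). Kif23 had the largest of these responses, 1.08 ± 0.19 (limma adjusted p = 0.00863), and Incenp followed in adjusted p with 0.63 ± 0.12 (limma adjusted p = 0.0101). Fitted on male inserts 1 to 3 alone, the median was -0.54 and Nek2 was the single gene called, lower (10.7% of all genes lower). These calls are descriptions too, since the split was chosen with earlier results of these data known.

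**Figure D5:**
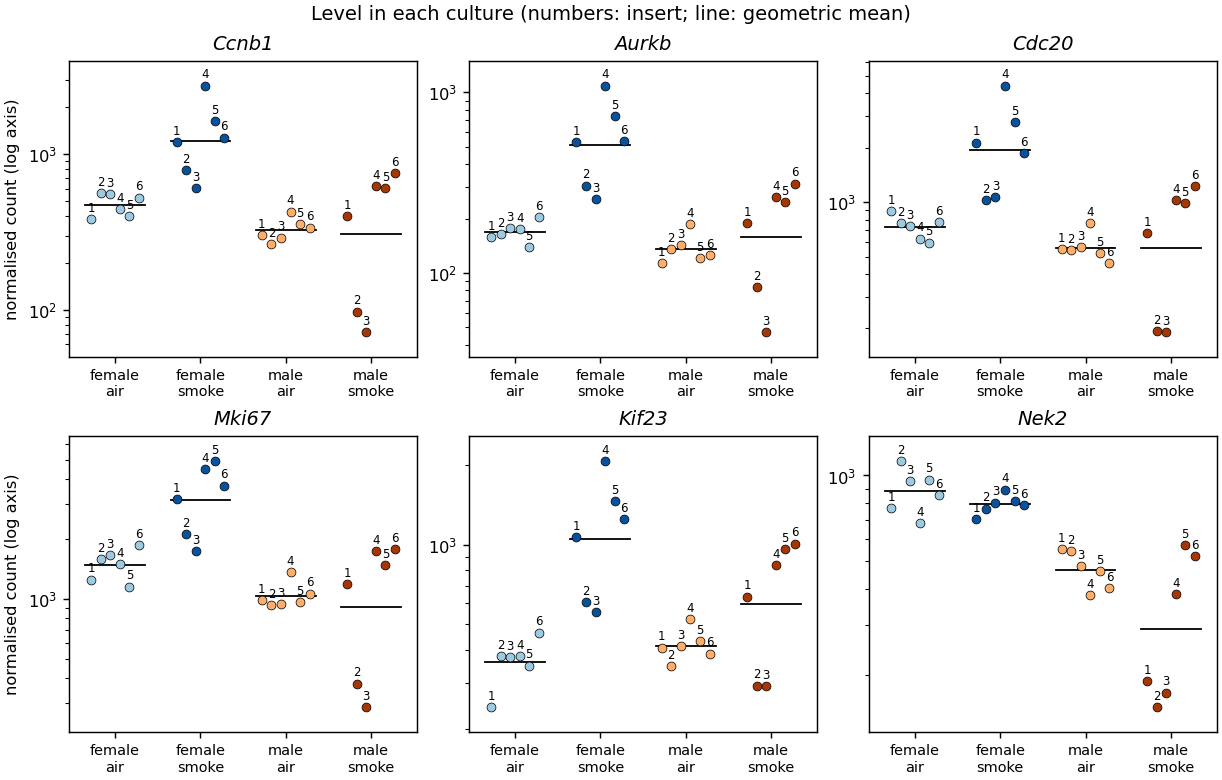
Normalised counts (log axis) of 6 mitotic genes in every culture, with the insert number beside each point and lines at the geometric mean of each group. For Ccnb1, Aurkb, Cdc20, Mki67 and Kif23, male smoke inserts 2 and 3 lie below all male air inserts and inserts 4 to 6 above them, and for Nek2 male smoke inserts 1 to 3 are the lowest 3 cultures.

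In both smoke groups, the mean of inserts 4 to 6 was above that of inserts 1 to 3 for all 40 genes. These comparisons of inserts 4 to 6 with inserts 1 to 3 are descriptions without a test, since the labels do not say what the numbers share. In male smoke, 35 of the 40 genes were higher in every one of inserts 4 to 6 than in any of inserts 1 to 3, where 15.9% of all genes were. The 5 exceptions were Ttk, Spc25, Ncaph, Smc2 and Kif20b, and the median difference was 1.48 log2 units (range 0.43 to 2.21). Ccnb1 had the largest difference, with a mean of 661 in inserts 4 to 6 and 190.5 in inserts 1 to 3. In female smoke, 15 genes were separated in the same direction (9.09% of all genes) and 0 in the other (7.18%), with a median difference of 1.03. In male air, 11 genes were higher in inserts 4 to 6 (18.3% of all genes), Nek2 was lower (15.2% of all genes), and the median was 0.21. In female air, 0 were higher (16.9% of all genes), Cenpa and Kif2c were lower (18.0% of all genes), and the median was 0.06.

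Whether the female response exceeded the male response was tested directly. The difference of the log2 fold changes, female minus male, was positive for all 40 genes, with a median of 1.17 and a range of 0.43 (Cdk1) to 1.67 (Ncapg). It passed the adjusted threshold for 1 of the 40, where 0.694% of all genes did in that direction. That gene was Smc4. Its values in male cultures were 866 to 1040.5 in air (median 908) and 1032, 747, 657, 1099, 1156 and 1047 in smoke inserts 1 to 6, against the non-overlapping rise in female smoke given above. The difference was 1.07 ± 0.23 log2 units (limma adjusted p = 0.0246). With the values scaled to library totals, it did not pass, nor on inserts 1 to 3 alone (limma adjusted p = 0.213). Incenp came next, with 1.19 ± 0.35 (limma adjusted p = 0.105), and was called by DESeq2 on recovered reads without male smoke insert 5 (1.92% of all genes called higher) and on inserts 4 to 6 alone (1.85%). In male cultures, Incenp was at 769.8 to 941 in air (median 816) and at 718, 526, 427, 1370.5, 1196 and 1389 in smoke.

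For the difference between the smoke responses, an unadjusted limma p under 0.05 was found for 1786 of all 13549 genes and 30 of the 40. The difference did not pass after adjustment over all genes for the 39 mitotic genes other than Smc4. Those with the smallest unadjusted p in their role groups were Plk1 (1.55 ± 0.60, limma adjusted p = 0.240), Bub1b (1.40 ± 0.53, limma adjusted p = 0.231) and Ndc80 (1.20 ± 0.46, limma adjusted p = 0.238). Tpx2 (1.34 ± 0.49, limma adjusted p = 0.212) and Kif20a (1.38 ± 0.56, limma adjusted p = 0.274) stood in the same place in the last groups. In male cultures Plk1 was at 199.9 to 292 in air (median 216) and at 246, 86.4, 54.5, 398, 388 and 466 in smoke. Inserts 2 and 3 lay below the air range, insert 1 within it and inserts 4 to 6 above it.

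In air, female cultures had somewhat more of most mitotic transcripts than male cultures. The log2 difference, female minus male, was positive for 36 of the 40, with a median of 0.53, but only 2 genes were called higher (20.0% of all genes) and 0 lower (19.0% of all genes). These were Cdk1 (1.09 ± 0.39, limma adjusted p = 0.0310) and Nek2 (0.92 ± 0.25, limma adjusted p = 0.00593). Cdk1 was at 364 to 1018 in female air and 201 to 301 in male air. Without female air insert 1, which held the value of 1018, Cdk1 was not called and Kif20b was. The call also ended without male air insert 1, 3 or 6, which left Nek2 alone. Nek2 was at 681 to 1126 in female air and 380.2 to 553 in male air, without overlap. For 9 genes all female air inserts lay above all male air inserts (16.6% of all genes), and for 15 without female air insert 1 (24.4%). Incenp went the other way, with all 6 female air inserts (563 to 707) below all 6 male air inserts (769.8 to 941), as were 16.7% of all genes, although its difference of -0.42 ± 0.25 was not called (limma adjusted p = 0.184). A fit on the air groups alone called 25 genes higher and Incenp lower, against 22.5% and 19.6% of all genes.

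In smoke, female cultures had more of nearly every mitotic transcript than male cultures. Of the 40 genes, 39 were called higher in female smoke than in male smoke (17.0% of all genes), with a median log2 difference of 1.69. Kif23 was the exception, at 0.83 ± 0.32 (limma adjusted p = 0.0504). Ccnb2 had the largest difference (2.23 ± 0.44, limma adjusted p = 0.000372), at 347 to 1998 in female smoke and 45.2 to 345 in male smoke. For 10 genes no male smoke insert reached the female smoke range (9.57% of all genes). The lowest male smoke value was insert 3 for 29 of the 40 genes and insert 2 for the other 11.

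Levels between genes are compared here as normalised counts per kilobase of the longest annotated transcript. Ube2c and Cdc20 led in both female groups, with means of 505 and 411 per kilobase in air and 1622 and 1242 in smoke. Ncapg, Bub1 and Ttk were lowest, with 23.6, 33.2 and 36.6 per kilobase in female air. In male air the same 5 genes stood at 246, 318, 21.1, 22.7 and 24.4. Nek2 followed Ube2c and Cdc20 in female air with a mean of 279 per kilobase and stood at 249 in female smoke, where 19 of the other genes were above it.

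Genes around the mitotic core were read from lists of related function. The counts below stand against 15.5% of all genes called higher and 19.3% lower in female smoke, and 9.76% and 12.2% in male smoke. Of 36 other kinetochore genes, 24 were called higher and 0 lower in female smoke (median 1.01), and 4 and 0 in male smoke (median 0.25), the male share being near that of all genes. Oip5, which helps load the centromeric histone, had a log2 fold change of 1.64 in female and 0.73 in male cultures, of which the female value passed. The centromere protector Sgo1 rose by 1.50 in female cultures and stood at 0.27, not called, in male cultures. Of 26 other spindle and cytokinesis genes, 19 rose in female smoke, and 3 in male smoke, again near the share of all genes. Among them Aunip rose in both sexes (1.77 and 1.59), and Fam83d rose in female cultures (1.67) with a male value of 0.11 that was not called. Of 17 cohesin and further condensin genes, 10 rose in female smoke, among them the cohesin acetyltransferase Esco2 (1.52) and Ncapg2 (1.52), and 0 rose and 1 fell in male smoke.

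Of 19 subunits and regulators of the anaphase-promoting complex, 3 rose in female smoke, near the share of all genes (15.5%), and 0 were called in male smoke, with medians of 0.12 and 0.08. Separase, encoded by Espl1 (1.48), and the inhibitor encoded by Fbxo5 (1.35) were among the 3. Of 16 further entry and exit regulators, 6 rose and 1 fell in female smoke, where 19.3% of all genes fell, and 2 rose in male smoke, where 9.76% of all genes rose. The kinase Melk rose in both sexes (0.95 in female and 1.46 in male cultures), and Pbk rose in female cultures (1.30).

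Of 19 transcription factors of the mitotic programme, 7 rose and 0 fell in female smoke, and 4 rose and 2 fell in male smoke. Over all genes, 15.5% rose and 19.3% fell in female smoke and 9.76% rose and 12.2% fell in male smoke, so the 2 that fell are near the share of all genes. Mybl2, the B-Myb factor that joins the MuvB complex, rose in both (1.68 and 0.99), and E2f8 rose in female cultures (1.70) with 0.66, not called, in male cultures. Of 20 replication genes, 17 rose in female smoke (median 1.24) and 8 in male smoke (median 0.63), and none fell in either. Orc1, a subunit of the origin recognition complex, rose by 2.28 and 1.58, and the replication factor Mcm10 by 1.96 and 1.06. Of 10 G1 cyclins and kinases, 7 rose in female and 3 in male smoke, with Ccne1, cyclin E1, at 1.35 and 1.43 and Cdc7 at 1.27 and 1.21. Of 15 genes of cell cycle exit, 8 rose in female smoke, while 1 rose and 3 fell in male smoke. Cdkn1a, the p21 inhibitor, rose in both (1.13 and 0.56), and Gas1 fell in male cultures (-1.27).

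Multiciliated cells use relatives of mitotic regulators to make centrioles without dividing. Of 15 such genes, 0 rose and 10 fell in female smoke (median -2.21), and 0 rose and 7 fell in male smoke (median -1.35), where 19.3% and 12.2% of all genes fell. Cdc20b, a relative of the mitotic Cdc20, fell in both sexes, with log2 fold changes of -2.65 ± 0.88 in female and -3.51 ± 0.88 in male cultures. Foxn4, a transcription factor of that programme, fell as well (-2.92 ± 0.92 and -3.49 ± 0.92). Mean normalised counts in male cultures went from 34.7 to 2.33 for Cdc20b and from 30.5 to 1.38 for Foxn4. At such low levels the size of the male fall depends on the added count of 1. The difference between the sexes was not called for either gene (limma adjusted p = 0.851 and 0.922). The mitotic Cdc20, by contrast, rose by 1.42 in female cultures. In male cultures it was not called (-0.00 ± 0.41, limma adjusted p = 0.999).

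Marker transcripts of cell types moved alongside the mitotic genes, and their part in the result was not tested. The summed level of 12 basal cell markers was 186254 to 290836 in female air and 269289.9 to 470118 in female smoke, and 202411 to 249839.6 in male air and 165126 to 293113 in male smoke. The sum of 11 measured multiciliated markers was 26798 to 59012 in female air and 12797 to 30959.6 in female smoke, and 13987 to 19001 in male air and 12628 to 18556 in male smoke. Sums weight abundant transcripts most, so the genes are also counted singly. Of the 12 basal markers, 2 were called higher and 1 lower in female smoke (median log2 fold change 0.32), and 3 and 2 in male smoke (median -0.18). Of the 11 multiciliated markers, 0 were called higher and 10 lower in female smoke (median -2.80), and 1 and 0 in male smoke (median -1.07). The sum of 9 club cell markers was 710380.2 to 1260401 in female air and 296441 to 693925 in female smoke, and 586882 to 792926 in male air and 139424 to 391455 in male smoke. Within male smoke, where the mitotic genes split by insert, the club marker sum was 139424 to 180108 in inserts 1 to 3 and 318772 to 391455 in inserts 4 to 6. The basal sum was 286935, 293113 and 165126 in male smoke inserts 1 to 3 and 231319 to 286538 in inserts 4 to 6. The leukocyte sum was 5779.8 to 23810.3 in male smoke inserts 1 to 3 and 31621 to 44353 in inserts 4 to 6. The club and leukocyte sums thus did not overlap between these inserts, and the basal sums did. Multiciliated sums (13098 to 16396 and 12628 to 18556) and fibroblast sums overlapped too. The endothelial sum separated the other way, at 26.9 to 49.9 and 13.3 to 19.8. Of all single genes, 15.9% were higher and 17.3% lower in every one of inserts 4 to 6. Sums of 9 fibroblast markers were at most 159.5 in female smoke and 97.0 in male smoke against up to 1519 and 429.6 in air, with Lum at 0 in all smoke inserts. The 6 endothelial markers summed to at most 63.5 in any culture. The 10 leukocyte markers, which include Lyz2 and Cd68, summed to 33638 to 131020.2 in female air and 5179.5 to 41787 in female smoke, with Adgre1 at 0 in both. In male cultures that sum was 30325 to 40531 in air and 5779.8 to 44353 in smoke, with Cd3g at 0 in both. Counted singly, 4 of the 10 leukocyte markers passed the filter on low values. Of these 4, 1 was called higher and 2 lower in female smoke (median -0.45), and 2 and 0 in male smoke (median 0.53). Of 8 club markers that passed, 0 were called higher and 5 lower in female smoke (median -1.39), and 0 and 3 in male smoke (median -1.31).

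In the authors' deposited table for female cultures, 39 of the 40 mitotic genes were higher and 0 lower in smoke at an adjusted p under 0.05 (11.9% of all genes higher, 15.4% lower). In the authors' deposited table for male cultures, 3 were higher, Cdca8 (0.66), Smc2 (0.50) and Kif23 (0.63), where 21.9% of all genes were higher, and 0 were lower, where 20.1% of all genes were. In the authors' deposited table for air cultures, 26 were higher and 1, Incenp, lower in female than in male cultures (20.7% of all genes higher, 15.9% lower).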

How the data were processed

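RNA sequencing libraries of 24 culture inserts (4 groups of 6) were used. Per the submitters' processing notes, FastQC 0.11.9, Trimmomatic 0.38.0, HTSeq and DESeq2 were used with builds GRCm38 and mm10; aligner and strand setting: not given in the sources used here. The deposited signal values are gene counts that the authors divided by 1 size factor per library; whole reads came back for 100.0% of values (tolerance 0.001 reads) in 23 libraries, and male smoke insert 5 was left out of count tests because its factor was too near 1. The authors' tables hold deposited log2 fold changes and adjusted p-values, per the file headers.

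limma 3.58.1 (R 4.3.3; empirical Bayes with trend, 1 term per group over all 24 libraries) was run on log2(value + 1) for 13549 genes with a mean of at least 10; Benjamini-Hochberg adjustment covered all of them in each of 5 comparisons, two-sided. The script was tested on simulated data. Alternatives were other scalings, pseudocounts of 0.5 and 5, other filters, an insert-number block, left-out libraries, edgeR 4.0.16 and DESeq2 1.42.0. Values were printed per role for the genes with the largest female response, the largest male response and the smallest p for the difference. These values cover 1 or both sexes. In each related list, the 2 called genes with the largest fold change were named. Ccnb1, Cdc20, Mki67 and other genes outside that rule were picked after their values were seen. The 40 genes, the lists, the split by insert number and the insert pair left out were chosen with earlier results of these data known. Same-numbered inserts were not treated as pairs.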

Additional observations from a re-analysis of the deposited data

Results flagged for a closer look

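Single inserts stood apart in 21 of the 160 sets of 6 values checked (40 genes in 4 groups), by a gap to the next insert that was too large a share of the range of the group under the 95% critical value of Dixon, taken on the scale of log2(normalised count + 1). Chance alone marks about 1 in 20 such sets. On that scale all 21 lay in air cultures, and 12 of them in female air insert 1. On the normalised counts themselves, a scale added after seeing the data, 29 sets passed, 4 of them in female smoke (Ccnb2, Birc5, Cdca8 and Cenpa, each highest in insert 4). Female air insert 1 was highest for Cdk1 (1018 normalised counts), Birc5 (738), Cdca8 (470.1) and Cenpa (654). It was lowest for Top2a (776), Ncapg (15.2), Smc2 (190.2), Smc4 (662), Hmmr (66.9), Kif20a (74.5), Kif20b (132) and Anln (294). Male air insert 4 was highest for Cdk1 (301), Incenp (941), Ube2c (327), Cenpa (225), Top2a (1174), Mki67 (1361), Smc2 (519.7), Prc1 (487) and Anln (695). The smoke response of Smc4 differed between female and male cultures by 1.07 log2 units in the test of that difference.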

How the results depend on the processing

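For the 40 mitotic genes, no setting turned the direction of a called value. The count called in female smoke was 29 to 38 with single libraries left out and 1 on inserts 1 to 3 alone. In male smoke the count was 0 to 1 with single libraries left out, the 1 being Nek2, lower, without female air insert 1, female smoke insert 4 or male smoke insert 4, 5 or 6. It was 1 with the length trend removed, 1 with inserts 1 to 3 or 4 to 6 as a covariate, 1 on the groups compared alone (Smc2, higher), 1 on inserts 1 to 3 alone, 1 by edgeR, 1 by DESeq2, 2 without female air insert 1 and female smoke insert 4, 7 on inserts 4 to 6 alone and 32 with array quality weights. For the female minus male response it was 1 to 2 with single libraries left out (2 without female smoke insert 2), 0 with library total scaling, 0 on inserts 1 to 3 alone, 3 on inserts 4 to 6 alone, and 2 each with inserts 1 to 3 or 4 to 6 as a covariate, by DESeq2 and with array quality weights. For female against male in air it was 1 to 4 with single libraries left out (4 without female smoke insert 4 or male smoke insert 2, 3 without male smoke insert 3), 4 with inserts 1 to 3 or 4 to 6 as a covariate, 4 without female air insert 1 and female smoke insert 4, 6 on inserts 4 to 6 alone, 7 by DESeq2, 26 on the groups compared alone and 35 with array quality weights. For female against male in smoke it stayed between 36 and 40. The cause of these shifts was not tested. For most of these settings the counts were not set against the share of all genes called, so they describe the mitotic genes only.

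Same-numbered air and smoke inserts were compared by the Pearson correlation of their deviations from the group mean over all genes tested. The coefficient was over 0.1 in 5 of 6 female pairs and 1 of 6 male pairs. An insert matched its own number best in 2 of 6 female and 0 of 6 male cases. The numbers were not taken to pair the inserts. With insert number as a replicate block, 37 mitotic genes were called in female smoke, 0 in male smoke, 1 for the difference, 5 in air and 40 between the sexes in smoke. With the block and the length trend removed together, the counts were 38, 0, 2, 6 and 40. These counts describe the mitotic genes only and were not compared with the share of all genes called under the same settings.

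Over all genes, the count for female smoke was 4713 and became 2857 on the groups compared alone, 656 on inserts 1 to 3 alone (383 higher, 273 lower) and 7709 with array quality weights, with 4149 to 6243 when single libraries were left out. For male smoke, 2979 became 6148 on the groups compared alone, 6398 without female air insert 1 and female smoke insert 4, 931 on inserts 4 to 6 alone and 6677 with array quality weights, with 2110 to 4596 for single libraries. For the difference, 140 became 212 with quantile scaling, 345 with the length trend removed, 310 with block and length trend, 840 without the 2 named inserts, 40 on inserts 1 to 3, 637 on inserts 4 to 6, 506 by DESeq2 and 2420 with array quality weights, with 75 to 431 for single libraries. In air, 5282 became 2859 on inserts 1 to 3 and 9490 with array quality weights (4685 to 6067 for single libraries). Those 9490 of 13549 genes stand beside the 35 of 40 mitotic genes called in air with array quality weights. In smoke, 4364 became 6967 without the 2 named inserts and 6601 with array quality weights (3901 to 5919 for single libraries). Library total scaling moved the median of all genes to -0.11 in air and -0.15 in smoke between the sexes, and the mitotic medians to 0.39 and 1.54. The lowest value of any mitotic gene in any library was 15.2 normalised counts.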
